A study of Capra hircus with 72 samples.

Results

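The proteases and protease inhibitors described here are the calpains, cathepsins, caspases and metalloproteases, with the cystatin, serpin and TIMP families. They were the genes whose symbol carried a calpain, calpastatin, cathepsin, cystatin, caspase, serpin, TIMP, ADAM or MMP name in the union of 6 deposited tables of RNA-seq comparisons from goats (Capra hircus). That gave 42 members among 7558 genes. By class there were 3 calpains, 4 cathepsins and cystatins, 3 caspases, 8 serpins and 22 ADAM, ADAMTS, ADAMTS-like (ADAMTSL), MMP and TIMP genes. The remaining 2, CASP8AP2 (a caspase 8 associated protein) and CSTF2T (an mRNA 3′ end processing factor), matched by name only and are not proteases. The animals were 8-month-old intact male Spanish goats, fed from pasture with a grain supplement and without feed overnight before treatment. One group travelled in a livestock trailer for 30 min, one travelled for 180 min, and the controls stayed in pens; all were slaughtered. Blood was sequenced from 4 goats of the 30 min group, 7 of the 180 min group and 7 controls. Muscle was sequenced in sets marked 24H and 6D, each with 9 goats of the 30 min group, 9 of the 180 min group and 9 controls. The labels give no meaning for these marks, which serve here as names, and the muscle is not named further.

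Libraries held 9.45 to 39.5 M counts (M for 1e+06), with a median of 14.7 M over the 72 libraries. Goat numbers run to 27 although the design text describes 54 goats, and the same numbers recur in blood and in both muscle sets, so the sets are not counted as adding goats. The title and group tag of muscle goat 9 name it a control while its other fields name 180 min of transport; it was kept as a control, and members whose test it decides are named below. Of 13 skeletal muscle fibre markers, 5 were listed in the 24H 30 min table with a summed level of 23931 to 59758 FPKM (counts per kilobase of gene and per 1e+06 counts) in transported goats and 36889 to 90007 FPKM in controls. No fibre marker was listed in the blood tables, which says only that none passed the listing threshold there. In bulk tissue, fewer cells of a type and less RNA per cell cannot be told apart.

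Proteases are tied to meat quality because they take muscle structure apart after slaughter. Calpains cut the proteins that anchor and align the sarcomere, and calpastatin holds them back; cathepsins are lysosomal and are held by cystatins; caspases act in apoptosis. Metalloproteases and TIMPs set the turnover of the connective tissue around the fibres, while many serpins guard blood and tissue against leukocyte, clotting and complement proteases. RNA levels say nothing direct about the activity of these enzymes, most of which are made as inactive precursors or bound by inhibitors. Calpastatin and CAPN2, and the cathepsins CTSB, CTSD and CTSL, were listed in no comparison, so they could not be analysed here. Their absence does not show that they were unchanged.

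Each table lists genes with an unadjusted p under 0.05 in the authors' own test, so a member is present only where it already differed in that comparison. A member was counted as higher or lower (written as rose or fell) where the authors' deposited adjusted p was under 0.05 and edgeR's quasi-likelihood test on the deposited counts gave an unadjusted p under 0.05 in the same direction. Log2 fold changes are the authors' deposited values, transported over control, unless edgeR is named. Runs of 3 values in one group are its lowest, median and highest library.

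In total 10 members made 11 calls. In blood after 180 min, 2 of 14 listed members rose and 0 fell, where the authors called 0.704% of the genes they adjusted (0.634% higher and 0.0704% lower). In 24H muscle after 30 min, 1 of 15 rose and 4 fell, against 12.1% of genes called (6.17% higher and 5.91% lower). In 24H muscle after 180 min, 2 of 12 rose and 1 fell, against 2.01% called (1.06% higher and 0.946% lower). In 6D muscle after 180 min, 1 of 13 fell and 0 rose, against 0.827% called (0.396% lower and 0.431% higher). No member passed in the blood 30 min table, with 1 listed and 0.0241% of genes called, or in the 6D 30 min table, with 5 listed and 0.0177% called. Among the genes that made each table, the authors called 5.61%, 37.0%, 14.4% and 7.35% in blood at 180 min, 24H muscle at 30 min, 24H muscle at 180 min and 6D muscle at 180 min, and the members' shares there were 14.3%, 33.3%, 25% and 7.69%.

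More listed members were lower than higher in each muscle table. In blood after 180 min, 9 listed members were higher and 5 lower, in a table where 59.4% of all listed genes were higher; the median log2 fold change was 1.21 against 0.78 for all listed genes. The member listed in blood after 30 min, ADAMTS3, was lower, in a table where 29.5% of all listed genes were higher. The 24H tables held 4 higher and 11 lower members after 30 min (median -0.47, all listed genes -0.22) and 4 higher and 8 lower after 180 min (median -0.57, all listed genes -0.30). The 6D tables held 1 higher and 4 lower after 30 min (median -0.64, all listed genes -0.29) and 2 higher and 11 lower after 180 min (median -0.66, all listed genes -0.40). Of all listed genes, 49.0% and 48.6% were higher in the 24H tables and 48.8% and 45.6% in the 6D tables, after 30 and 180 min. Being listed fixes that these members differ, so the medians describe the tables and are not a test.

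**Figure D1:**
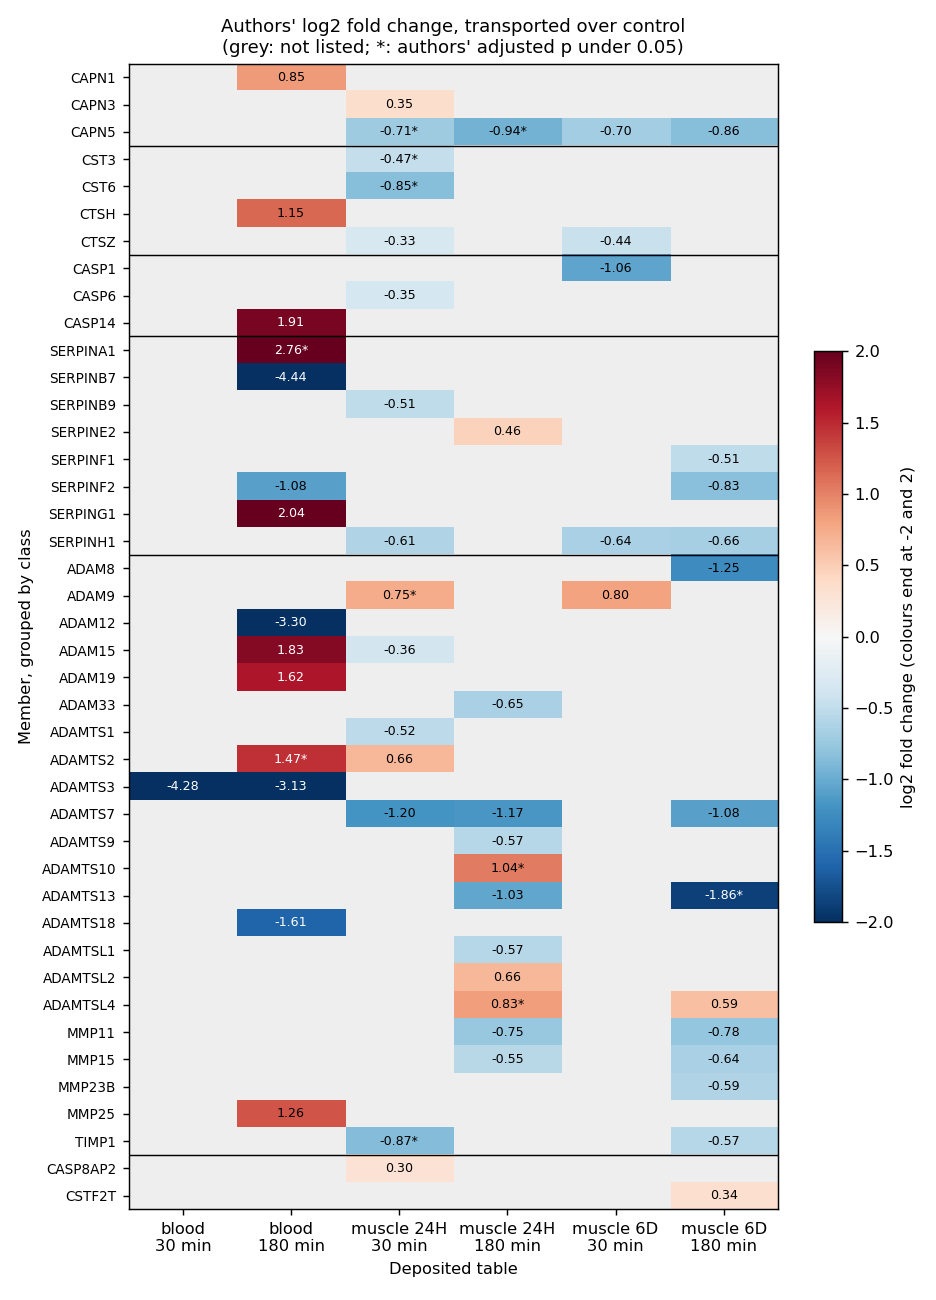
Authors' deposited log2 fold change of each of the 42 members (rows, grouped by class) in each of the 6 tables (columns), transported over control; grey cells are members with no row in that table and asterisks mark an authors' adjusted p under 0.05. CAPN5 (-0.94 to -0.70) has a value in all 4 muscle tables.

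Beside these calls, edgeR's p, adjusted over as many genes as entered the authors' adjustment, was under 0.05 for 0 members in all 6 tables, and for 0.0805%, 0.0949%, 0.171%, 0% and 0.0834% of genes in blood after 180 min, 24H muscle after 30 and 180 min and 6D muscle after 30 and 180 min; the lowest was 0.0539, for ADAMTS10 in 24H muscle after 180 min. The numbers passing shifted with single libraries. In 24H muscle after 30 min, ADAM9, CAPN5, CST6 and TIMP1 had adjusted p from 0.0642 to 0.0660, close together just above the threshold. Their estimates moved less. Without any one library, edgeR's log2 ran from 0.55 to 0.84, -0.80 to -0.62, -0.96 to -0.72 and -1.06 to -0.76, in that order. The highest unadjusted p of edgeR among those fits was 0.0076, for TIMP1. For 24H muscle after 30 min, 12 genes passed with all libraries, 2170 without control goat 8, 1596 without 30 min goat 22, 882 without control goat 4, 466 without 30 min goat 26, and 3 to 21 without any one of the others. The members passing were then 7 (ADAM9, ADAMTS7, CAPN5, CST3, CST6, SERPINH1 and TIMP1) without control goat 8, ADAM9, CAPN5, CST6 and TIMP1 without goat 22 or control goat 4, and ADAM9 without goat 26. For 24H muscle after 180 min, 24 genes passed with all libraries and 3 to 91 without any one; ADAMTS10 passed without 180 min goat 13 or 15 or control goat 9, and CAPN5 without 180 min goat 14. For 6D muscle after 180 min, 12 genes passed with all libraries and 0 to 35 without any one, and ADAMTS13 passed without control goat 7. In blood after 180 min it was 8 genes with all libraries and 0 to 12 without any one, and 0 members throughout. With all libraries, edgeR's unadjusted p was under 0.05 for 12 of 14 members in blood after 180 min, 14 of 15 and 12 of 12 in 24H muscle after 30 and 180 min, 5 of 5 and 10 of 13 in 6D muscle after 30 and 180 min, and 0 of 1 in blood after 30 min. The same held for 81.6%, 90.4%, 91.4%, 75.8%, 86.7% and 70.7% of all listed genes in that order. The DESeq2 Wald test with the same adjustment passed 4, 4, 2, 0, 1 and 0 members in the same order, and limma with trend passed 0 in each. DESeq2 passed 127 of 1247, 1327 of 4125, 273 of 1961, 3 of 1252, 116 of 1618 and 6 of 430 listed genes there. For limma it was 9, 21, 28, 1, 7 and 0 of the same listed genes.

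Calpains. CAPN5, a calpain without the calcium-binding domain of the classical enzymes (gene ENSCHIG00000009860, chromosome 15, positions 26421214 to 26478410, minus strand as the tables list it), was lower in transported goats in every muscle table. In 24H muscle it fell after 30 min, with 71.3, 103.7 and 160.0 normalized counts in transported goats against 96.9, 189 and 257 in controls. All 9 transported goats lay below the control median and 3 lay below every control. The log2 fold change was -0.71 (authors' adjusted p = 0.0152; edgeR -0.71 ± 0.20 SE, adjusted p = 0.0644). It also fell after 180 min, with 51.8, 67.4 and 167 normalized counts in transported goats against 89.4, 173 and 236 in controls, a log2 fold change of -0.94 (authors' adjusted p = 0.0139; edgeR -0.94 ± 0.24 SE, adjusted p = 0.0935). There 6 of 9 transported goats lay below every control. Both comparisons share the same 9 control libraries.

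In the 6D set CAPN5 did not pass. After 30 min it had 89.4, 128 and 203 normalized counts in transported goats against 129, 194 and 432 in controls (log2 fold change -0.70, authors' adjusted p = 0.347). After 180 min it had 24.02, 97.8 and 207 in transported goats against 122, 185 and 413 in controls (log2 fold change -0.86, authors' adjusted p = 0.244). Of the 9 transported goats, 5 lay below every control after 30 min and 6 did after 180 min. The highest control value was that of goat 5.

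**Figure D2:**
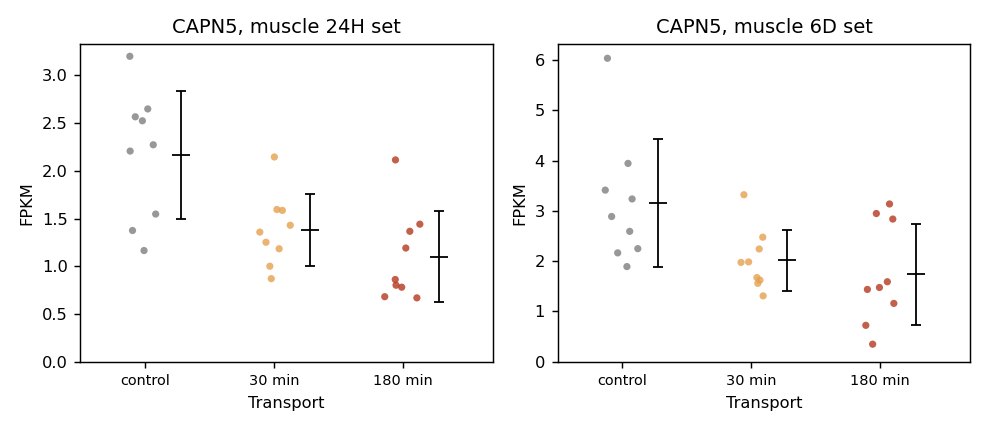
FPKM of CAPN5 in the 24H and 6D muscle sets, one point per goat by length of transport, with mean and SD (n = 9 per group). CAPN5 means lie at 2.17, 1.38 and 1.10 FPKM in 24H control, 30 min and 180 min goats.

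CAPN3, the muscle-specific calpain bound to titin, was among the more abundant members in muscle. It had 6707, 9493 and 12067 normalized counts in 24H muscle of 30 min goats against 4182, 6743 and 9918 in controls. With 8 of 9 transported goats above the control median, its log2 fold change was 0.35 and it was not called (authors' adjusted p = 0.111). CAPN1, which encodes the catalytic subunit of µ-calpain, the calpain most often linked to post-mortem tenderisation, was listed in blood. It had 6377, 8062 and 25734 normalized counts in blood of 180 min goats against 3941, 5810 and 10109 in controls. All 7 transported goats were above the control median, yet the log2 fold change of 0.85 was not called (authors' adjusted p = 0.40), and without goat 10, the highest library, edgeR's estimate was 0.47 (unadjusted p = 0.0794).

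Cathepsins and cystatins. Both cystatins fell in 24H muscle after 30 min. CST6, cystatin E/M, an inhibitor of legumain and of cysteine cathepsins, was the most abundant listed member in 24H control muscle at 233 ± 73.9 FPKM (SD, n = 9). It had 263, 901 and 1437 normalized counts in transported goats against 816, 1669 and 2485 in controls. Every transported goat lay below the control median, and the log2 fold change was -0.85 (authors' adjusted p = 0.0170; edgeR -0.85 ± 0.24 SE, adjusted p = 0.0644). CST3, cystatin C, the widely secreted inhibitor of cysteine cathepsins, had 1784, 2724 and 4261 normalized counts in transported goats against 2553, 3674 and 5226 in controls. Its groups overlapped widely, 8 of 9 transported goats lay below the control median, and the log2 fold change was -0.47 (authors' adjusted p = 0.0490; edgeR -0.47 ± 0.17 SE, adjusted p = 0.0845).

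The 2 cathepsins did not pass in any table. CTSZ, a lysosomal carboxypeptidase, had 145, 203 and 302 normalized counts in 24H muscle of 30 min goats against 181, 268 and 365 in controls (log2 fold change -0.33, authors' adjusted p = 0.138). In 6D muscle after 30 min it had 192, 244 and 280 normalized counts in transported goats against 242, 320 and 456 in controls, with all 9 transported goats below the control median (log2 fold change -0.44, authors' adjusted p = 0.347). CTSH, a lysosomal aminopeptidase, was listed in blood after 180 min, with 3791, 6667 and 33809 normalized counts in transported goats against 2415, 3614 and 8854 in controls. The highest value was goat 10, and the next highest transported goat had 8156. The log2 fold change of 1.15 was not called (authors' adjusted p = 0.457), and without goat 10 edgeR's estimate was 0.42 (unadjusted p = 0.226).

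Caspases. CASP6, CASP1 and CASP14 were not called. CASP6, a caspase of apoptosis, had 50.7, 76.7 and 88.8 normalized counts in 24H muscle of 30 min goats against 73.2, 82.0 and 119 in controls (log2 fold change -0.35, authors' adjusted p = 0.102). CASP1, which matures interleukin 1 beta, was near the detection limit in 6D muscle, with 1.02, 4.58 and 26.6 normalized counts after 30 min against 5.35, 12.1 and 44.5 in controls (log2 fold change -1.06, authors' adjusted p = 0.655). CASP14, known from keratinocyte differentiation, had 37.5, 85.8 and 189 normalized counts in blood of 180 min goats against 0, 24.7 and 83.5 in controls (log2 fold change 1.91, authors' adjusted p = 0.361), and 4 of 7 transported goats lay above every control.

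Caspase regulators, a list of 29 genes, gave 9 rows in 24H muscle after 30 min, 4 higher and 5 lower. By the authors' adjusted p, 2 were called, both lower: PIDD1, a scaffold for caspase 2 (log2 fold change -0.52, authors' adjusted p = 0.0241), and ENDOG, a mitochondrial nuclease (log2 fold change -0.63, authors' adjusted p = 0.0263). The inhibitors XIAP, BIRC2 and BIRC6 were among the 7 that were not called. Of all genes listed in that comparison, the authors called 37.0%. No regulator was called in the other tables, which listed 0 to 3 of them.

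Serpins. SERPINA1, alpha-1 antitrypsin, the plasma inhibitor of neutrophil elastase (gene ENSCHIG00000021633, chromosome 21, positions 58458993 to 58471223, minus strand), rose in blood after 180 min with the largest log2 fold change among the 11 calls. It had 9857, 33486 and 266900 normalized counts in transported goats against 1899, 9794 and 21319 in controls. Of the 7 transported goats, 5 lay above every control. The log2 fold change was 2.76 (authors' adjusted p = 0.0146; edgeR 2.76 ± 0.73 SE, adjusted p = 0.245). The highest library was goat 10 and the next had 71562 normalized counts; without goat 10 edgeR's estimate was 1.73 (unadjusted p = 0.00498). In controls SERPINA1 averaged 257 ± 182 FPKM (SD, n = 7), the highest of the 14 members listed in blood.

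SERPING1, the C1 inhibitor of the complement and contact systems, had groups that did not overlap. It was the only such member of the 14 in the blood table after 180 min. In blood it had 28.8, 38.4 and 61.0 normalized counts in 180 min goats against 0, 11.3 and 27.5 in controls, from 361 counts over the 7 transported goats and 76 over the 7 controls. Among listed genes of that table, 3.05% had groups that did not overlap. The deposited adjusted p of 1 was taken as not adjusted, so SERPING1 (log2 fold change 2.04, edgeR unadjusted p = 0.0237) was not called. SERPINF2, alpha-2 antiplasmin, had 6.40, 39.2 and 64.2 normalized counts in blood of 180 min goats against 29.6, 64.8 and 126 in controls (log2 fold change -1.08, authors' adjusted p = 0.480). SERPINB7 was read in 1 of 7 transported goats (4 counts) and in 4 of 7 controls (60 counts).

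In muscle, SERPINH1 (HSP47), the collagen chaperone, a serpin without inhibitory activity, was listed in 3 tables and called in none. It had 686, 1056 and 2149 normalized counts in 24H muscle of 30 min goats against 788, 1739 and 2677 in controls (log2 fold change -0.61, authors' adjusted p = 0.0713). In 6D muscle the log2 fold changes were -0.64 after 30 min (492.8, 1501 and 2398 in transported goats against 844, 1904 and 4779 in controls) and -0.66 after 180 min (895, 1226 and 2375 in transported goats against 803, 1820 and 4534 in controls), with authors' adjusted p of 0.613 and 0.277. Without control goat 9 edgeR's estimates in the 6D set were -0.45 (unadjusted p = 0.115) and -0.47 (unadjusted p = 0.0635).

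The other muscle serpins had adjusted p-values from 0.0630 to 0.436. SERPINB9, an inhibitor of granzyme B, had 33.5, 53.3 and 72.0 normalized counts in 24H muscle of 30 min goats against 48.4, 76.6 and 130 in controls (log2 fold change -0.51). SERPINE2, protease nexin 1, had 50.8, 61.9 and 130 in 24H muscle of 180 min goats against 38.1, 57.7 and 64.3 in controls (log2 fold change 0.46). SERPINF1 and SERPINF2, neighbours on chromosome 19, were both lower in 6D muscle after 180 min, by log2 fold changes of -0.51 and -0.83.

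**Figure D3:**
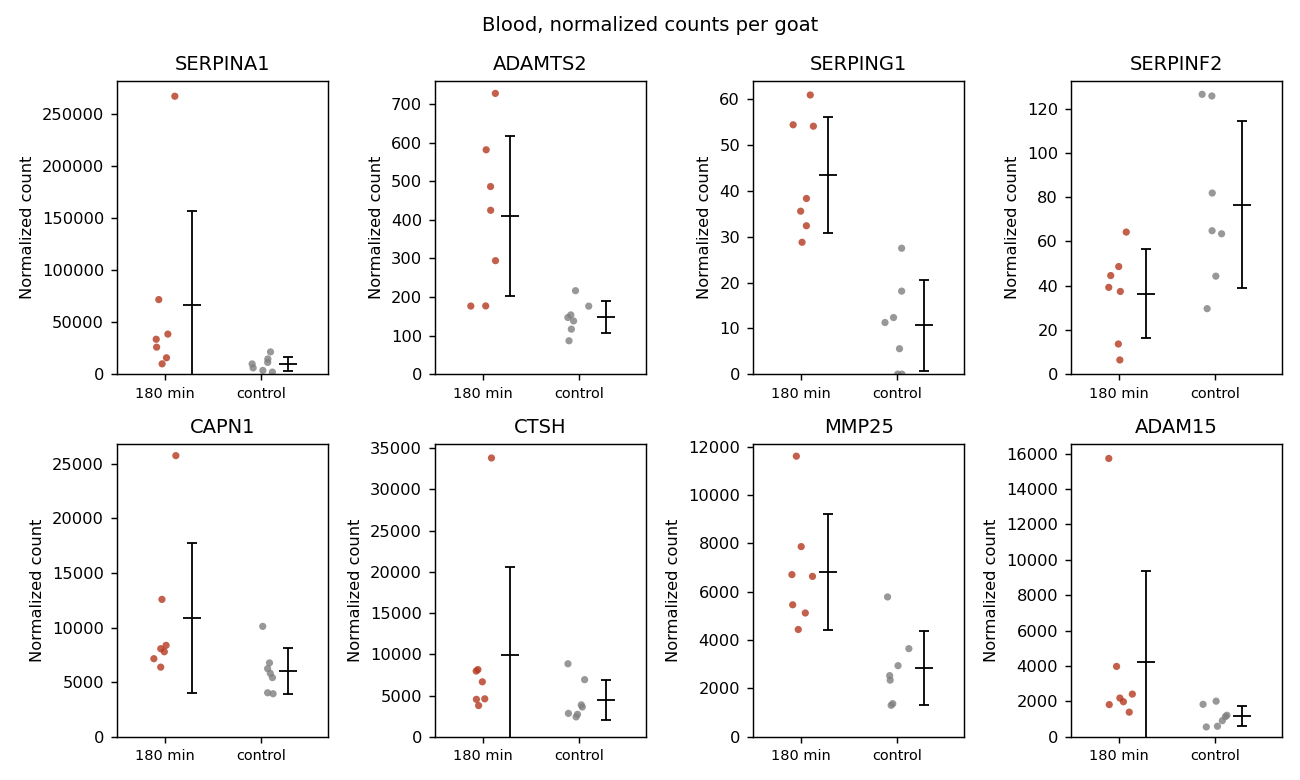
Normalized counts of 8 members in blood, one point per goat, 180 min goats left and controls right, with mean and SD (n = 7 each; SD bars that pass below 0 are cut at the axis). SERPING1 groups do not overlap, and one 180 min goat, goat 10, carries the highest SERPINA1 (266900), CTSH (33809), CAPN1 (25734) and ADAM15 (15728) values.

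Metalloproteases and TIMPs in blood. ADAMTS2, the procollagen N-proteinase that trims fibrillar collagen precursors, rose after 180 min. It had 176, 425 and 728 normalized counts in transported goats against 86.4, 147 and 216 in controls. All 7 transported goats were above the control median and 5 lay above every control, with a log2 fold change of 1.47 (authors' adjusted p = 0.0158; edgeR 1.47 ± 0.35 SE, adjusted p = 0.145). MMP25, a membrane-anchored metalloprotease known from neutrophils, had 4438, 6634 and 11604 normalized counts in transported goats against 1303, 2530 and 5784 in controls (log2 fold change 1.26, authors' adjusted p = 0.0680) and was not called. ADAM15, a membrane sheddase, had 1394, 2191 and 15728 in transported goats against 557, 1138 and 2013 in controls (log2 fold change 1.83, authors' adjusted p = 0.0917), and edgeR's estimate without goat 10 was 0.96 (unadjusted p = 0.00982). ADAM19, another sheddase, was split among transported goats, with 479, 1118 and 9491 normalized counts against 268, 1486 and 2387 in controls; 3 transported goats lay above every control and 4 below the control median (log2 fold change 1.62, authors' adjusted p = 0.437).

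The lower blood metalloproteases were barely read. ADAMTS3, a procollagen N-proteinase like ADAMTS2, was the member listed after 30 min, with 0, 0, 0 and 1.60 normalized counts in the 4 transported goats against 0, 3.06 and 37.5 in controls. That is 2 counts against 55, a ratio of 0.0692 with an exact 95% interval for counting error of 0.00818 to 0.262. The interval leaves out variation between goats. EdgeR's quasi-likelihood test, which includes it, gave an unadjusted p of 0.0508 (log2 -4.37 ± 2.06 SE). Control goat 3 held 33 of the 55 counts, and without it edgeR's log2 was -3.29, against -4.37 with all libraries. After 180 min ADAMTS3 had 10 counts in transported goats against 55 in controls, ADAM12 had 16 against 71 and ADAMTS18 had 29 against 86. Control goat 3 also held 34 of the ADAM12 control counts and 38 of the 60 SERPINB7 control counts; without it edgeR's log2 for ADAMTS3 after 180 min was -2.06, against -3.12 with all libraries, and for SERPINB7 -2.95, against -4.53. None was called; those 3 and SERPINB7 have a deposited adjusted p of 1 in that table. The tables' fibroblast markers moved with them: of 10, 4 were listed after 180 min, all lower and none called, with a summed level of 0 to 0.134 FPKM in transported goats and 0 to 4.10 FPKM in controls, and their part in these values was not tested.

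Leukocyte markers were listed in blood too, some higher and some lower. Of all genes listed in blood after 180 min, the authors called 5.61%. Of 12 neutrophil markers, 7 were listed after 180 min, MMP25 among them, all higher and 2 called, with a summed level of 3497 to 18257 FPKM in transported goats and 696 to 5980 FPKM in controls. Of 10 monocyte and macrophage markers, 6 were listed, all higher and 1 called, at 245 to 679 FPKM in transported goats and 78.8 to 269 FPKM in controls. Of 12 T and NK cell markers, 6 were listed, 1 higher and 5 lower, with 1 called each way, at 500 to 854 FPKM in transported goats and 499 to 866 FPKM in controls. That sum hides opposite directions. NKG7, the higher one, averaged 260 FPKM in transported goats against 140 FPKM in controls, and CD3E, a lower one, 198 against 323 FPKM. Of 8 B cell markers, 4 were listed after 30 min and 1 after 180 min, all lower and none called. One platelet marker of 6, GP1BB, was listed at 36.8 to 1619 FPKM in transported goats and 11.3 to 277 FPKM in controls, and was not called. The part of these cells in the values of SERPINA1, CTSH, CAPN1 and the metalloproteases was not tested. Goat 10 held the highest value among transported goats for 6 of the 14 members and, counting no shared value, the lowest for 2, ADAM19 and ADAMTS18.

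Metalloproteases and TIMPs in muscle. In 24H muscle after 30 min, ADAM9 rose and TIMP1 fell. ADAM9, a sheddase of cell-surface proteins, had 226, 316 and 689 normalized counts in transported goats against 145, 192 and 301 in controls. Every transported goat lay above the control median and 5 lay above every control, with a log2 fold change of 0.75 (authors' adjusted p = 0.0137; edgeR 0.75 ± 0.20 SE, adjusted p = 0.0642). TIMP1, a secreted inhibitor of many MMPs, had 77.9, 109 and 254 normalized counts in transported goats against 117, 210 and 386 in controls. Of 9 transported goats, 6 lay below every control, and the log2 fold change was -0.87 (authors' adjusted p = 0.0216; edgeR -0.87 ± 0.26 SE, adjusted p = 0.0660).

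In the 6D set the same genes were listed without a call. ADAM9 after 30 min had 60.5, 79.4 and 309 normalized counts in transported goats against 32.8, 66.5 and 93.5 in controls (log2 fold change 0.80, authors' adjusted p = 0.480), and without goat 23 edgeR's estimate was 0.47 (unadjusted p = 0.0571). TIMP1 after 180 min had 142, 214 and 479 in transported goats against 199, 342 and 625.04 in controls (log2 fold change -0.57, authors' adjusted p = 0.40), and without control goat 9 edgeR's estimate was -0.44 (unadjusted p = 0.0997).

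After 180 min, ADAMTS10 and ADAMTSL4, both proteins of the fibrillin microfibril network, rose in 24H muscle. ADAMTS10 had 83.7, 181 and 324 normalized counts in transported goats against 61.7, 72.5 and 134 in controls. All 9 transported goats lay above the control median and 6 above every control, with a log2 fold change of 1.04 (authors' adjusted p = 0.0019; edgeR 1.04 ± 0.22 SE, adjusted p = 0.0539). ADAMTSL4, which lacks a catalytic domain, had 470, 844 and 1714 in transported goats against 239, 469 and 750 in controls, with a log2 fold change of 0.83 (authors' adjusted p = 0.0477; edgeR 0.83 ± 0.24 SE, adjusted p = 0.144). In 6D muscle after 180 min ADAMTSL4 had 685, 890 and 1491 against 359, 582 and 1126 in controls (log2 fold change 0.59, authors' adjusted p = 0.191).

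ADAMTS13, the protease that trims von Willebrand factor, fell in 6D muscle after 180 min at very low counts. It had 2.83, 4.08 and 6.02 normalized counts in transported goats against 2.67, 16.03 and 24.3 in controls, from 39 counts over 9 transported goats and 132 over 9 controls. All transported goats lay below the control median and within the control range, with a log2 fold change of -1.86 (authors' adjusted p = 0.0043; edgeR -1.87 ± 0.39 SE, adjusted p = 0.0738). In 24H muscle after 180 min it had 0, 5.33 and 6.59 normalized counts in transported goats against 0, 8.66 and 16.2 in controls (log2 fold change -1.03, authors' adjusted p = 0.245).

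**Figure D4:**
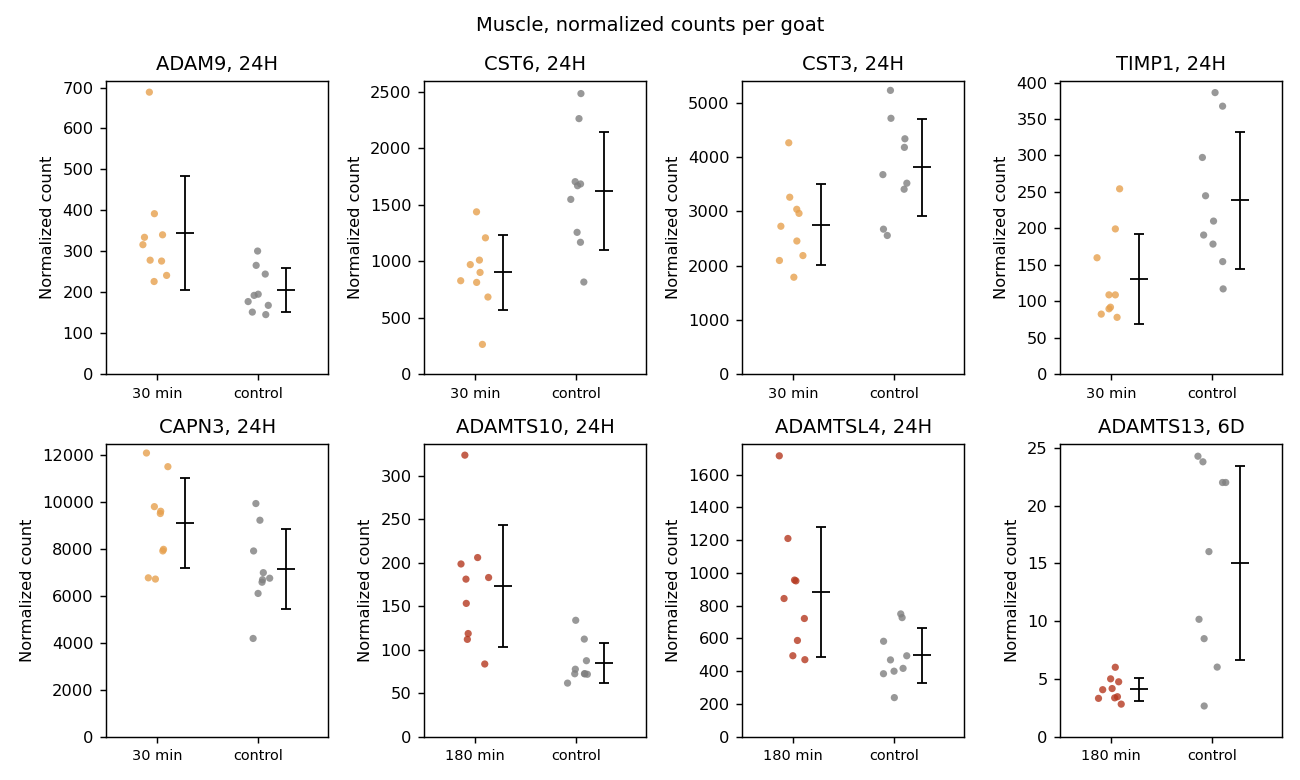
Normalized counts of 8 members in muscle, one point per goat, transported goats left and controls right, with mean and SD (n = 9 each). ADAM9, ADAMTS10 and ADAMTSL4 are higher and CST6, CST3, TIMP1 and ADAMTS13 lower in transported goats, and the 6D ADAMTS13 panel spans 2.83 to 6.02 counts in 180 min goats against 2.67 to 24.3 in controls.

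The other ADAM, ADAMTS, ADAMTS-like and MMP genes listed in muscle without a call were mostly lower. ADAMTS7, which degrades cartilage oligomeric matrix protein, was listed in 3 muscle tables with log2 fold changes of -1.20, -1.17 and -1.08 and authors' adjusted p of 0.0574, 0.212 and 0.20. In 24H muscle after 30 min it had 7.27, 15.2 and 64.8 normalized counts in transported goats against 12.997, 47.4 and 121 in controls, where both groups spread widely. MMP15, a membrane-type MMP, had log2 fold changes of -0.55 and -0.64 after 180 min in the 24H and 6D sets, and MMP11, stromelysin 3, had -0.75 and -0.78. ADAMTS1 (-0.52) and ADAM15 (-0.36) were lower in 24H muscle after 30 min, and ADAMTS9 (-0.57), ADAM33 (-0.65) and ADAMTSL1 (-0.57) were lower there after 180 min. ADAM8 (-1.25) and MMP23B (-0.59) were lower in 6D muscle after 180 min. ADAMTS2 after 30 min (0.66) and ADAMTSL2 after 180 min (0.66) were higher in 24H muscle. Authors' adjusted p for these 9 values ran from 0.0915 for ADAM8 to 0.438 for MMP23B. Without control goat 9, edgeR's unadjusted p was 0.05 or more for ADAMTS7, MMP11 and MMP15 after 180 min in both sets. The same held for ADAM15, CAPN3, CASP6 and CTSZ in 24H muscle after 30 min and for ADAMTS9, ADAMTS13 and ADAMTSL1 there after 180 min, while for MMP23B in 6D muscle it came under 0.05 without that goat.

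The 3 members listed in both tissues did not share a direction throughout. ADAMTS2 was higher in blood after 180 min (1.47) and in 24H muscle after 30 min (0.66), SERPINF2 was lower in blood (-1.08) and in 6D muscle (-0.83) after 180 min, and ADAM15 was higher in blood after 180 min (1.83) and lower in 24H muscle after 30 min (-0.36). The difference between tissues was not tested, and the lengths of transport differ for ADAMTS2 and ADAM15. The name-only matches were higher, CASP8AP2 in 24H muscle after 30 min (0.30, authors' adjusted p = 0.159) and CSTF2T in 6D muscle after 180 min (0.34, authors' adjusted p = 0.460).

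Other genes of these pathways were counted from lists of fixed membership, by the authors' adjusted p. Of all genes listed in 24H muscle, the authors called 37.0% after 30 min and 14.4% after 180 min. These shares are the background for the counts of the lists. Of 28 lysosome and autophagy genes, 9 were listed in 24H muscle after 30 min, 7 higher and 2 lower, with a median log2 fold change of 0.39. The summed level of those 9 was no higher, at 576 to 929 FPKM in transported goats and 649 to 1015 FPKM in controls. By the authors' adjusted p, 5 were called, all higher. They were MITF (1.10), a lysosomal gene regulator, IGF2R (0.58) and SORT1 (0.41), which sort enzymes to the lysosome, ATG5 (0.39), needed to build autophagosomes, and BNIP3 (0.34), a mitophagy receptor. After 180 min 4 were listed in 24H muscle, with BNIP3 called higher (0.67) and NPC2, a lysosomal cholesterol carrier, called lower (-0.44). In blood after 180 min 6 were listed, all higher and none called.

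Of 14 pericellular proteolysis genes, FURIN, the convertase that activates many ADAM and ADAMTS proenzymes, was called higher in 24H muscle after 30 min (0.54) and 180 min (1.03) and in 6D muscle after 180 min (0.78). PLAU, urokinase, which makes plasmin, was called lower in 24H muscle after 30 min (-0.90) and 180 min (-0.77). Of 21 calpain substrates, 7 were listed in 24H muscle after 30 min, 5 higher and 2 lower, where the authors called 37.0% of all listed genes. Their summed level was 22811 to 39987 FPKM in transported goats and 35142 to 56060 FPKM in controls. The substrates called were VCL (0.78), SYNM (0.77) and NEB (0.67) higher, and TNNT1 (-0.86) and TNNI2 (-0.46) lower. VCL, SYNM and NEB encode vinculin, synemin and nebulin, and the others are troponin subunits. None of the list was called in the other tables.

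Markers of vessel cells, fibres and macrophages were listed in muscle too, not all in one direction. Of all genes listed in 24H muscle, the authors called 37.0% after 30 min and 14.4% after 180 min. In 6D muscle after 180 min they called 7.35%. Of 13 endothelial and mural markers, 7 were listed in 24H muscle after 30 min, all lower and 5 called, with a summed level of 41.3 to 124 FPKM in transported goats and 86.6 to 177 FPKM in controls. After 180 min 6 were listed in that set, all lower and none called, at 16.6 to 42.9 FPKM in transported goats and 27.7 to 68.0 FPKM in controls. In 6D muscle after 180 min 3 were listed, all lower and none called, at 56.3 to 283 FPKM in transported goats and 111 to 297 FPKM in controls. Of the 5 fibre markers listed in 24H muscle after 30 min, 1 was higher (MYH2) and 4 lower, with 3 called lower. Those called were MB, TNNT1 and TNNC1. After 180 min 4 were listed in that set, 1 higher and 3 lower, with MYH7 called lower (log2 fold change -0.64, authors' adjusted p = 0.0197), at 12759 to 31622 FPKM in transported goats and 18658 to 51045 FPKM in controls. Of 10 monocyte and macrophage markers, 3 were listed in 24H muscle after 30 min, 2 higher and 1 lower, with CD68 called lower (-0.87, authors' adjusted p = 0.0432), at 1.12 to 3.46 FPKM in transported goats and 0.907 to 3.57 FPKM in controls. After 180 min CD163 alone was listed and was called higher (1.53, authors' adjusted p = 0.00759), at 0.325 to 1.77 FPKM in transported goats and 0.118 to 0.945 FPKM in controls. In 6D muscle 4 monocyte and macrophage markers were listed after 30 min, all lower and none called. After 180 min CD163 alone was listed in 6D muscle, higher and not called. Of 10 fibroblast markers, FBN1 (0.44) in 24H muscle and PDGFRA (0.75) in 6D muscle were listed after 30 min, both higher and not called. None was listed after 180 min. Of 12 neutrophil markers, 1 was listed in 24H muscle after 30 min, lower. After 180 min 3 were, 2 higher and 1 lower, and none was called. Each other marker list gave 0 to 2 rows per muscle table, none called. The part of all these cells in the values of CST6, CST3, TIMP1, ADAM9, CAPN5, ADAMTS10, ADAMTSL4 and ADAMTS13 was not tested.

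The lengths of transport were compared directly for members listed in both tables of a set. CAPN5 differed by -0.33 ± 0.23 in the 24H set and -0.21 ± 0.32 in the 6D set (edgeR log2, 180 min over 30 min, SE). ADAMTS7 in the 24H set differed by -0.04 ± 0.47, SERPINH1 in the 6D set by -0.07 ± 0.26 and ADAMTS3 in blood by 1.14 ± 1.56. With edgeR's quasi-likelihood test, adjusted over all genes shared by the tables, 0 of these 5 values passed and the lowest adjusted p was 0.969; at an unadjusted p under 0.05 the count was also 0, and limma passed 0. Of all shared genes, 4.56% passed in the 24H set and 0% in the 6D set and in blood. The errors leave room for differences of the size of the transport effects, so the lengths are not shown to act alike.

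The transport effects were also compared between the muscle sets. For CAPN5 the effect in the 6D set minus that in the 24H set was 0.01 ± 0.31 after 30 min and 0.13 ± 0.42 after 180 min (edgeR log2, SE). The largest was -0.79 ± 0.62, for ADAMTS13 after 180 min. None of the 4 members tested after 30 min or the 6 tested after 180 min passed edgeR's quasi-likelihood test (adjusted p of 0.998 or more; 0 of them had an unadjusted p under 0.05, and limma passed 0), and 0% of all shared genes did. Only genes listed in both sets were tested, which selects for like effects. At an unadjusted p under 0.05, edgeR passed 2 of 647 shared genes after 30 min and 0 of 709 after 180 min. The lack of a difference was thus nearly fixed by the selection and shows no likeness of the sets. CST6, CST3 and TIMP1 after 30 min and ADAMTS10 after 180 min were not listed in the 6D set and were not tested. A call in the 24H set and none in the 6D set is not shown to be a difference between the sets.

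Levels in control muscle did differ between the sets, widely over all shared genes. Of the 10 members compared, 5 passed edgeR's quasi-likelihood test, near the share of all 1407 shared genes, 52.0%. That count is thus not particular to the members. Of the shared genes, 20.3% passed as higher and 31.6% as lower in 6D, and the median gene was lower in 6D, with a log2 of -0.12. Scaling to the totals of the shared genes moved that median to 0.02, and the genes passing from 286 higher and 445 lower to 354 higher and 335 lower. With that scaling 7 of the 10 members passed, CAPN5 (adjusted p = 0.0292) and ADAMTSL4 (adjusted p = 0.0223) being the added ones. ADAM9 was lower in the 6D set, at 2.10 ± 0.63 FPKM against 5.39 ± 1.55 FPKM in the 24H set (SD, n = 9 each; log2 -1.35 ± 0.21 SE, adjusted p = 0.000209), and lower in all 9 goat numbers. TIMP1 was higher in the 6D set, at 46.9 ± 19.1 FPKM against 24.7 ± 9.54 FPKM (log2 0.93 ± 0.25 SE, adjusted p = 0.0052), and so were CTSZ (0.51, adjusted p = 0.0071), MMP11 (1.00, adjusted p = 0.0181) and SERPINH1 (0.70, adjusted p = 0.0410, and 0.0570 with limma). TIMP1, CTSZ and SERPINH1 were higher in 6D in 9 of 9 goat numbers and MMP11 in 8 of 9.

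The goat numbers pair the control libraries of the sets, and with the number as a block 9 of the 10 members passed, against 64.4% of shared genes (27.6% higher and 36.8% lower in 6D). CAPN5 (log2 0.52, adjusted p = 0.0187), ADAMTS7 (0.77, adjusted p = 0.0237), ADAMTSL4 (0.52, adjusted p = 0.0045) and ADAMTS13 (0.89, adjusted p = 0.0341) passed with the block and not without it, each higher in the 6D set; CAPN5 and ADAMTSL4 are those that also passed under the other scaling. MMP15 did not pass (0.23 ± 0.17 SE). No label gives a batch for the libraries, so a difference in how the sets were handled and a difference between the samples cannot be told apart.

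**Figure D5:**
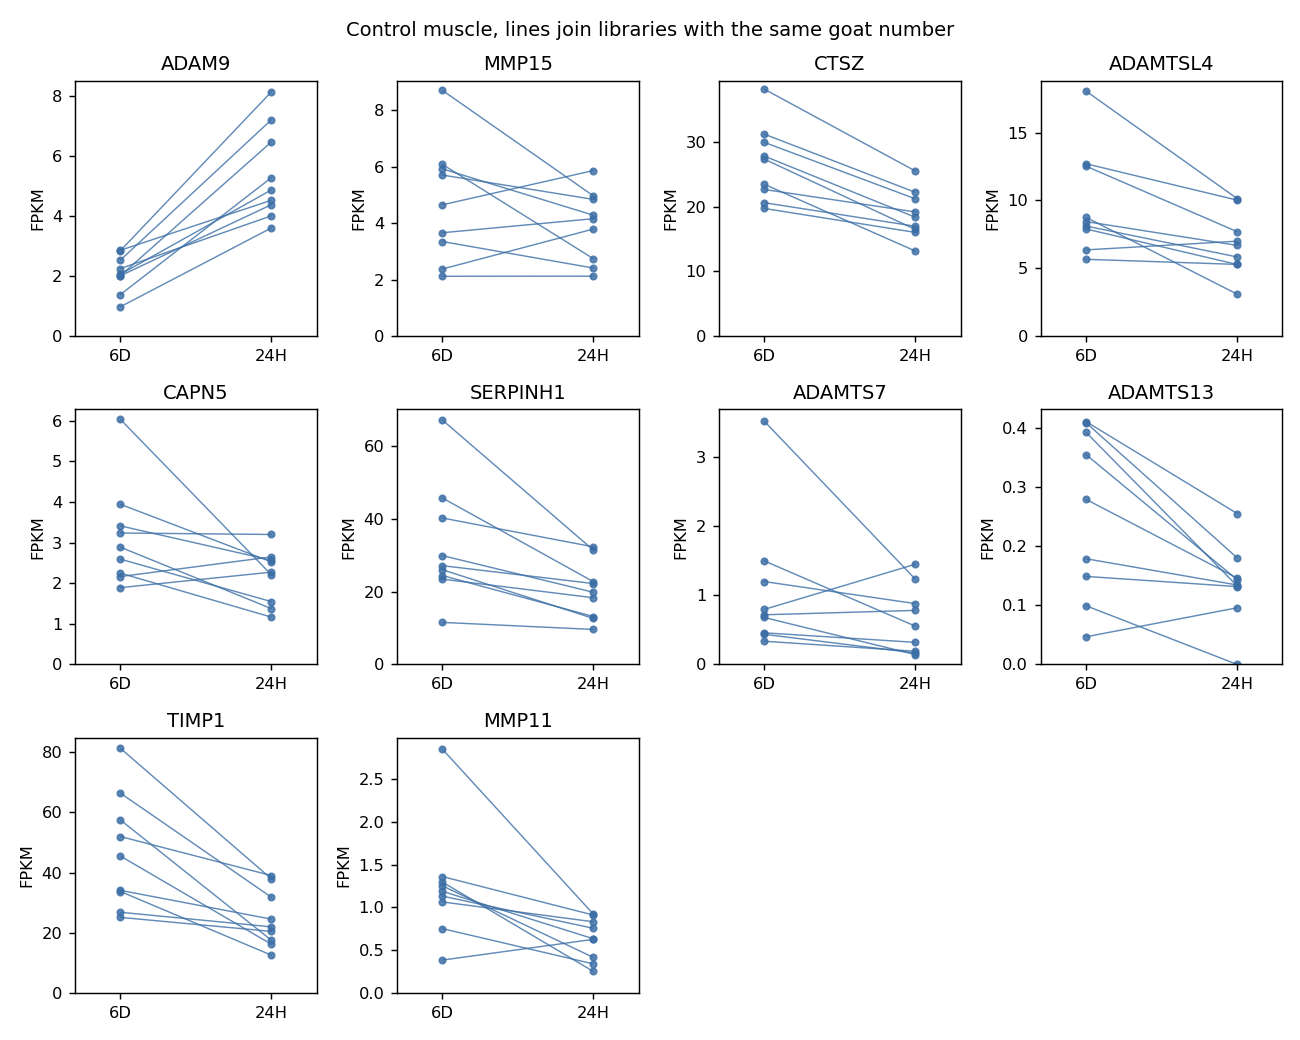
FPKM of 10 members in control muscle, 6D set left and 24H set right, lines joining libraries with the same goat number (n = 9 pairs). ADAM9 is lower in 6D for all 9 numbers, and TIMP1, CTSZ and SERPINH1 are higher for all 9.

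Which members have a level in a tissue was set by listing there, so the following levels describe the tables and do not compare the tissues. In control blood SERPINA1 (257 ± 182 FPKM), CTSH (205 ± 125), CAPN1 (82.0 ± 31.9) and MMP25 (67.4 ± 39.1) led the 14 listed members (SD, n = 7), and 8 of the rest were under 3 FPKM. In 24H control muscle CST6 (233 ± 73.9 FPKM), CAPN3 (182 ± 46.5) and CST3 (81.0 ± 18.2) led (SD, n = 9), with CAPN5 and ADAMTS10 at 2.17 and 1.80 FPKM.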

How the data were processed

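RNA-seq tables of goat blood and muscle were analysed, 6 in all, each comparing one transport group with the controls of its set. The authors deposited raw counts per gene, normalized counts (a signal: the count divided by one size factor per library and table, checked on the values), FPKM, and their own log2 fold change, p-value and adjusted p-value. The sources used here name no aligner, counting tool, strand use, genome build or test, so positions carry no build and genes with close copies or overlapping neighbours have uncertain counts. How many genes entered the authors' adjustment was worked back from their p-values and adjusted p-values; an adjusted p-value of exactly 1 was taken as not adjusted.

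Members were found by symbol; 1 further matching gene and 1 gene of a companion list are not reported here and are left out of the counts, while fits and adjustments kept all genes. The members, gene lists and tests were chosen with earlier results of these data known. On all listed genes, edgeR (4.0.16) quasi-likelihood tests were run on the deposited counts with the authors' size factors, and between sets or lengths of transport with library totals implied by FPKM; adjustment was Benjamini-Hochberg at 0.05. Code was tested on simulated data. Alternatives were DESeq2 (1.42.0), limma (3.58.1), other scalings, a filter at a mean of 10 normalized counts, goat number as a block (with edgeR, and with limma, added after seeing the data), and leaving out each library. Named were called members, genes of known interest for tenderness and members in 3 or more tables; other members are given by values. Groups came from titles. Same-numbered 6D and 24H libraries deviated together in controls (r from 0.198 to 0.672) and 180 min goats (0.358 to 0.642), all 9 pairs over 0.1; in 30 min goats 6 of 9 pairs were. No sequences were printed.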

Additional observations from a re-analysis of the deposited data

Results flagged for a closer look

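Of 115 member and group combinations, 7 (6.09%) held a single library far from the others of its group, where chance gives about 1 in 20. In blood of 180 min goats, CTSH in goat 10 stood at 33809 normalized counts while the other 6 goats lay between 3791 and 8156. SERPINB7 was read in goat 13 of that group (2.21 normalized counts) and at 0 in the others. ADAMTS3 in blood of 30 min goats was read in goat 22 (1.60 normalized counts) and at 0 in the others.

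In 24H muscle of 30 min goats, goat 23 had both the highest ADAM9 (689 normalized counts, others 226 to 392) and the lowest CST6 (263, others 683 to 1437). Goat 23 was the lowest of its group for 6 of the 15 members listed there. ADAMTS13 in 24H muscle was at 0 in goat 16 of the 180 min group (others 1.78 to 6.59) and at 0 in control goat 5 (others 6.54 to 16.2). What sets these libraries apart was not tested.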

How the results depend on the processing

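The counts of members that rose or fell in each table did not change when any single library was left out, although only edgeR's unadjusted p was recomputed and the authors' adjusted p was not, so a call could be lost there and none gained (ranges 2 to 2 rose in blood after 180 min; 1 to 1 rose and 4 to 4 fell, and 2 to 2 rose and 1 to 1 fell, in 24H muscle after 30 and 180 min; 1 to 1 fell in 6D muscle after 180 min). Called genes in general were kept in the same way. In 24H muscle after 30 min, 778 of 781 higher ones stayed without goat 23, and 744 of 747 lower ones without control goat 7. In blood after 180 min, all 63 higher and 7 lower ones stayed without goat 10. The outcome was thus nearly fixed by the selection and is not particular to the members. With edgeR's p adjusted over the authors' number of genes, the member counts became 0 rose in blood after 180 min. They became 0 rose and 0 fell in 24H muscle after 30 min, 0 rose and 0 fell there after 180 min, and 0 fell in 6D muscle. When genes averaging under 10 normalized counts were dropped, 0 fell in 6D muscle after 180 min, because ADAMTS13 was among them. Of single member values for transport against control, no direction reversed. Of these, 208 of 233 stayed on their side of the threshold under another tool, scaling or filter. With a library left out, 804 of 1017 did. Some small differences between the sets did change sign, such as CAPN5 after 180 min (log2 0.13 with edgeR, -0.03 with limma). Fits with the goat number as a replicate block raised the members that differ between 6D and 24H control muscle to 9 (edgeR) and 9 (limma), against 5, and changed no other call; the numbers do not pair the 30 min libraries throughout (5 of 9 correlated best with their own number). Transport comparisons hold different goat numbers in each group, so no block was possible there. Low counts limit ADAMTS13, ADAMTS3, ADAM12, ADAMTS18, SERPINB7 and CASP1.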
